A study of Mus musculus with 62 samples.

Results

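NRF2, encoded by Nfe2l2, is a transcription factor whose level is normally kept low because KEAP1 holds it and hands it to a CUL3 ubiquitin ligase for destruction. Oxidants and electrophiles modify KEAP1, NRF2 then accumulates, pairs with small MAF proteins and binds antioxidant response elements upstream of its targets. These targets make and recycle glutathione and thioredoxin and detoxify quinones, and in the liver they set much of the capacity to deal with reactive compounds. The genes described here are Nfe2l2 and Keap1 with 8 targets, Gclc, Gclm, Slc7a11, Gsr, Txnrd1, Srxn1, Nqo1 and Osgin1. They were chosen by symbol, 10 of the 47643 symbols in the table, with earlier results of these data known. All 10 were found, and 9 passed the filter of at least 1 TPM, a length-corrected share of all transcripts, in at least 5 libraries. Slc7a11 did not.

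The livers came from female mice that were 2 months old when they received melanoma cells of a line that causes cachexia, the wasting of a cancer-bearing host (CAC). Other mice received melanoma cells of a line that does not cause it (NCAC) or were injected with no cells (mock, Con). Samples date from 2, 4, 6 and 8 weeks after the injection. Each of the 12 groups has 5 libraries, but CAC at 8 weeks has 7, so that 62 were analysed. The labels call the libraries biological replicates, without naming the animals. The strain is given as C57BL6/J in the labels and as NCI Ath/nude in the design text, and which applies could not be settled. Nude mice lack a working thymus and mature T cells. The labels give all groups the same strain, and each tumour arm is 1 line, so a property of the line and cachexia cannot be told apart. In bulk liver, fewer cells of a type and less RNA per cell cannot be told apart either.

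Every library carried hepatocyte transcripts at a high level, with 5 markers summing to 84040 to 127300 TPM. In 9 libraries the pancreatic gene Ctrb1 reached at least 100 TPM, and in 12 either Ctrb1 did so or the muscle gene Acta1 reached at least 10 TPM (other-tissue libraries below). Among these are CAC replicate 1 at 6 weeks and Con replicates 2 and 4 at 8 weeks, and the members' results that rest on them are also given without them. Depth is unknown, because TPM keep no read number. TPM are shares of a fixed total, and this matters at 8 weeks. Over all 12160 genes tested the median log2 difference of CAC from Con was then -0.21, with 714 genes called higher and 4291 lower. After median-of-ratios rescaling the median was 0.01, with 1613 called higher and 1600 lower. Each difference is one of mean log2(TPM + 1) and is followed by its standard error. Adjusted p-values come from limma. A gene is called at an adjusted p under 0.05.

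Sequence just before the transcription start is shown because NRF2 acts through a short element upstream of its targets. Sequence outside the windows below was not searched, so an element there would be missed. RefSeq windows from 250 bases before to 50 after the start (GRCm38.p6) were at hand for 8 of the 10 genes, in 10 windows. The core TGACNNNGC was searched on both strands, as was the variant TGAGNNNGC, chosen after the first search which cannot begin at the same base as the first. Of all 32817 promoter windows 12.4% held the first, 17.7% the second and 27.8% either one. Matches before the start are in capitals below, in the 5′ to 3′ direction of the gene. They lie 240 bases before the start in Nfe2l2 (chr2:75704883-75704913, minus strand), 134 in Gclm (chr3:122245411-122245443, plus strand) and 92 before the second of 3 Txnrd1 starts (chr10:82859102-82859134, plus strand). Those of Srxn1 (plus strand) lie 45 (chr2:152105467-152105499) and 158 bases before it (chr2:152105354-152105386). That of Osgin1 lies 99 bases before it (chr8:119437036-119437068, plus strand). The first bases after the Nfe2l2 start were not found in a GENCODE transcript of that gene, so its distance depends on the RefSeq start.
Nfe2l2: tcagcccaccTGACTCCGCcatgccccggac
Gclm: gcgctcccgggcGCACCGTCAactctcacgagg
Txnrd1: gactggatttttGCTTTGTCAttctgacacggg
Srxn1, nearer match: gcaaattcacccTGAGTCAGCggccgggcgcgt
Srxn1, farther match: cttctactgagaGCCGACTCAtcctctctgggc
Osgin1: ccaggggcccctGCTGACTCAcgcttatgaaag
The Gclm, Txnrd1, Osgin1 and farther Srxn1 matches are on the opposite strand, so the core reads there as its reverse complement. The Osgin1 match and the nearer Srxn1 match are the same TGAGTCAGC on opposite strands. Slc7a11 also has a match to TGAGNNNGC 97 bases before its start, and the Nqo1 and Keap1 windows held none of these letters. A match is a description of the letters and not a measured binding site. Genes with a match were found both among those that fell at 8 weeks and among those that were not called, as given below.

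At 8 weeks 6 of the 9 tested genes were lower in CAC than in Con livers, and none was higher, against a background of 35.3% of all tested genes called lower. The fall was deepest for Osgin1 and Gclc, intermediate for Gsr and shallow for Keap1, Nfe2l2 and Srxn1. Gclm, Txnrd1 and Nqo1 were not called. Over the 9 tested genes the median log2 difference was -0.51, beside -0.21 over all genes, and after median-of-ratios rescaling it was -0.26 beside 0.01. Srxn1 lost its call under that rescaling (-0.13, adjusted p = 0.534), and the other 5 kept theirs, beside 13.2% of all genes then called lower. Without the libraries that carried pancreatic transcripts, Con replicates 2 and 4 in this comparison, Srxn1 stood at -0.29 (adjusted p = 0.19). Nfe2l2 (-0.58), Keap1 (-0.54), Gclc (-1.77) and Gsr (-0.70) were then called, and Txnrd1 (-0.26) and Nqo1 (-0.29) were not.

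**Figure D1:**
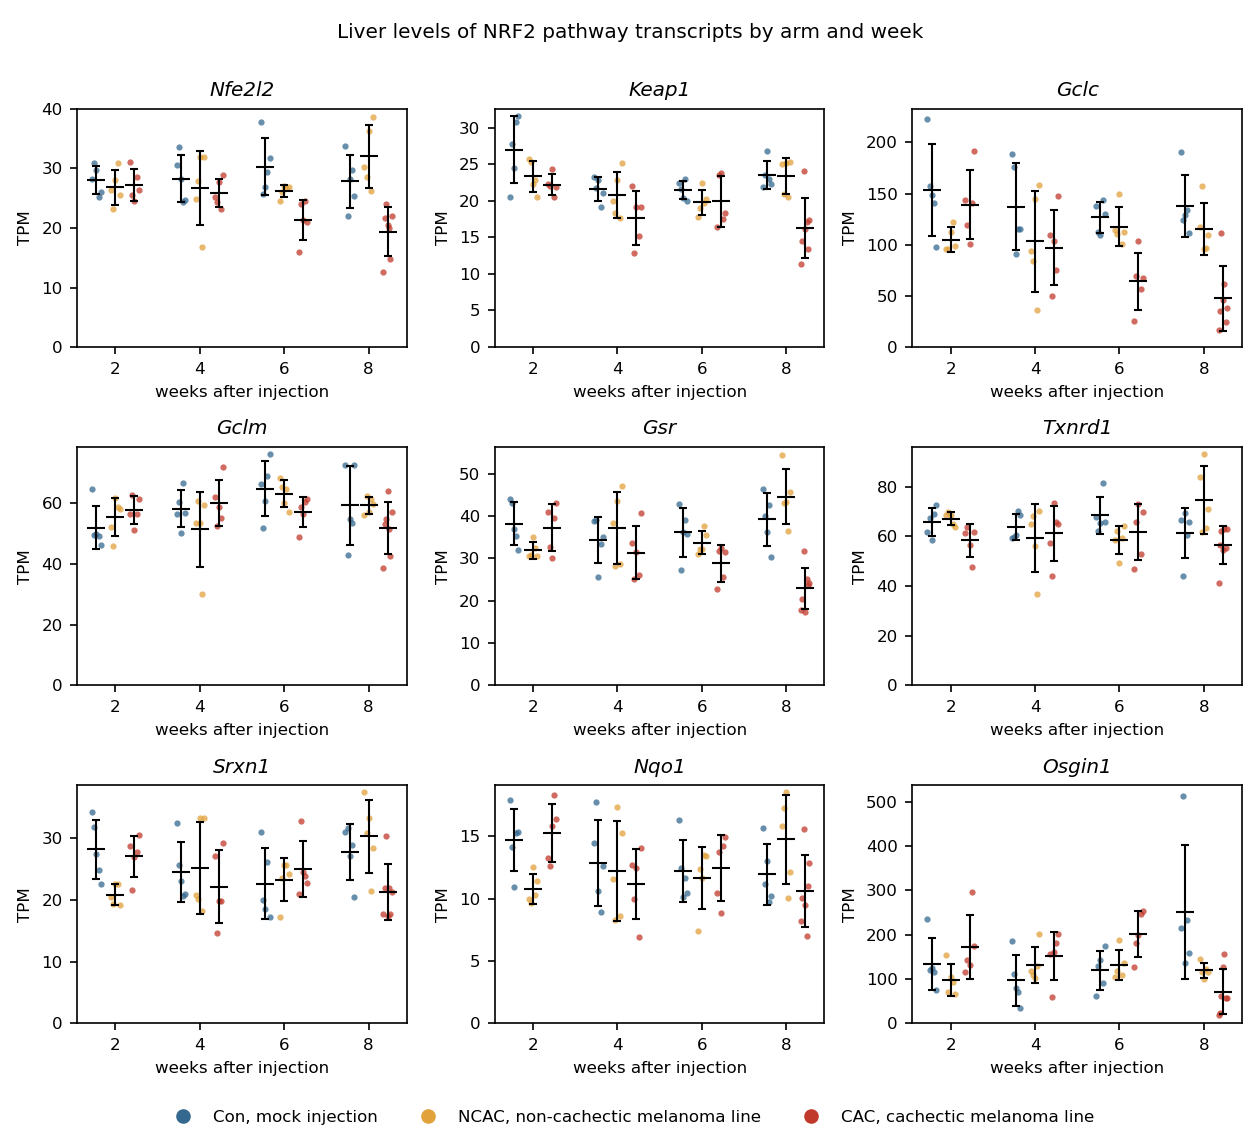
TPM of the 9 tested genes (vertical axes) against weeks after injection, with 1 point per library, coloured by arm, and a bar for the group mean ± SD. Gclc in CAC livers averages 139, 97.2, 64.5 and 47.6 TPM over the 4 time points, and Osgin1 in CAC livers averages 202 TPM at 6 weeks and 72.1 at 8 weeks.

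Nfe2l2, the factor itself, measured 33.7, 22.0, 28.2, 29.7 and 25.4 TPM in the Con livers at 8 weeks. In the 7 CAC livers it ran from 12.7 through a median of 20.5 to 24.0 TPM, and 6 of the 7 lay below every Con liver. The difference was -0.51 ± 0.13 (adjusted p = 0.0011). After median-of-ratios rescaling it was -0.26 ± 0.10 (adjusted p = 0.0396).

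Keap1, which encodes the inhibitor, measured 21.9, 23.5, 26.8, 23.02 and 22.2 TPM in Con at 8 weeks. CAC livers ran from 11.4 through a median of 16.2 to 24.1 TPM. Replicate 3 was the CAC liver that reached into the Con range. Its sum of the serum amyloid A genes Saa1 and Saa2 was 6407 TPM. The other CAC livers at 8 weeks had 46264 to 93917 TPM. Whether this bears on the values of replicate 3 was not tested. The difference was -0.53 ± 0.12 (adjusted p = 0.000269), and -0.28 ± 0.10 after rescaling (adjusted p = 0.0257). Transcripts of the factor and of its inhibitor were thus both lower in the same comparison.

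Glutathione synthesis starts with glutamate-cysteine ligase, whose catalytic subunit is encoded by Gclc and whose modifier subunit is encoded by Gclm. Gclc measured 190.3, 123.8, 128.7, 134.4 and 111.7 TPM in Con at 8 weeks, and ran from 16.3 through a median of 37.7 to 111.3 TPM in CAC. The groups did not overlap, although the highest CAC liver, replicate 3, came within 1 TPM of the lowest Con liver. Groups separated in that direction for 6.09% of all genes tested. The difference was -1.72 ± 0.30 (adjusted p = 1.09e-05), and -1.47 ± 0.27 after rescaling.

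Gclm measured 72.8, 43.0, 55.0, 53.6 and 72.8 TPM in the same Con livers and 38.8 to 64.3 TPM, with a median of 53.2, in CAC. The ranges overlapped widely. Its difference was -0.19 ± 0.12 (adjusted p = 0.23), and 0.07 ± 0.10 after rescaling. Without the Con livers that carried pancreatic transcripts it was -0.37 (adjusted p = 0.0142). With all libraries, rescaling without the 20 highest genes gave -0.35 (adjusted p = 0.0213). The call thus depended both on those libraries and on the scaling.

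The subunit transcripts can be set beside each other within a library, where a common scaling factor cancels. The ratio of Gclc to Gclm TPM averaged 2.90, 2.36, 1.96 and 2.38 in Con at 2, 4, 6 and 8 weeks. In NCAC it averaged 1.90, 1.94, 1.87 and 1.94. In CAC it averaged 2.40, 1.58, 1.11 and 0.896. At 8 weeks the CAC ratios ran from 0.419 to 2.03 and the Con ratios from 1.54 to 2.88, so the ranges overlapped at CAC replicate 3. The ratio was formed after the values of both genes were known and is given without a test.

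**Figure D2:**
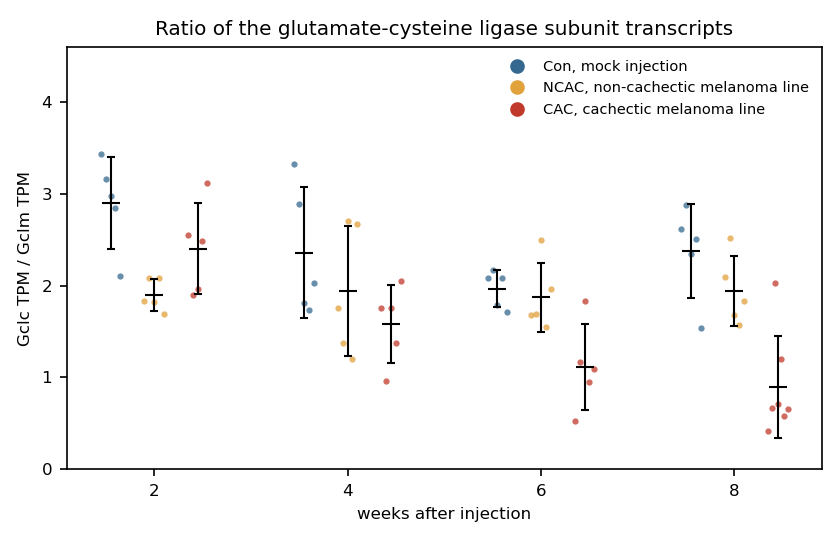
Ratio of Gclc TPM to Gclm TPM (vertical axis) against weeks after injection, with 1 point per library, coloured by arm, and the group mean ± SD. CAC means run from 2.40 at 2 weeks to 0.896 at 8 weeks, while NCAC means stay between 1.87 and 1.94.

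Slc7a11, the cystine carrier that feeds glutathione synthesis in many cell types, was hardly measured in these livers. It was listed at 0 in 32 of the 62 libraries and its highest value was 0.0919 TPM, in NCAC replicate 5 at 8 weeks. It was not tested.

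Gsr, the glutathione reductase that returns oxidised glutathione to its reduced form with NADPH, measured 46.5, 40.1, 36.3, 42.6 and 30.4 TPM in Con at 8 weeks. CAC livers ran from 17.3 through 23.6 to 31.6 TPM, and 6 of the 7 lay below every Con liver. The difference was -0.76 ± 0.13 (adjusted p = 1.41e-05), and -0.51 ± 0.11 after rescaling.

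In the thioredoxin branch, Txnrd1, the cytosolic thioredoxin reductase, averaged 61.3 ± 10.1 TPM in Con (SD, n = 5) and 56.5 ± 7.69 TPM in CAC (SD, n = 7) at 8 weeks. Its difference was -0.11 ± 0.13 (adjusted p = 0.509). Srxn1, the sulfiredoxin that restores overoxidised peroxiredoxins, measured 31.0, 31.6, 27.2, 28.9 and 20.5 TPM in Con. In CAC it ran from 17.5 through 21.4 to 30.4 TPM, a range that holds the Con livers at 27.2, 28.9 and 20.5 TPM. The difference was -0.38 ± 0.16 (adjusted p = 0.0494). Srxn1 lost its call in 7 of the 12 alternative analyses and on leaving out any of 10 of the 12 livers compared, so it stood at the edge of the threshold. The exceptions were CAC replicate 3 and Con replicate 5.

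Nqo1, the quinone reductase often used as a readout of NRF2, was low in these livers, with 6.92 to 18.5 TPM over all 62. It averaged 11.95 ± 2.45 TPM in Con (SD, n = 5) and 10.6 ± 2.89 TPM in CAC (SD, n = 7) at 8 weeks. The difference of -0.18 ± 0.17 was not called (adjusted p = 0.45).

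Osgin1, an oxidative stress induced growth inhibitor, measured 214.5, 512.7, 136.0, 233.6 and 159.7 TPM in Con at 8 weeks. Replicate 2, the highest of all 62 libraries, carried pancreatic transcripts. CAC livers ran from 19.6 through 57.6 to 157.1 TPM, and 6 of the 7 lay below every Con liver. The difference was -1.95 ± 0.37 (adjusted p = 3.78e-05), and -1.53 without the 2 Con livers that carried pancreatic transcripts (adjusted p = 0.00484). Con livers averaged 251 ± 151 TPM at 8 weeks (SD, n = 5), or 186 ± 45.7 TPM without replicate 2 (SD, n = 4), and 134.5 ± 59.3 TPM at 2 weeks (SD, n = 5). That difference between weeks was not called (0.83, adjusted p = 0.472).

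**Figure D3:**
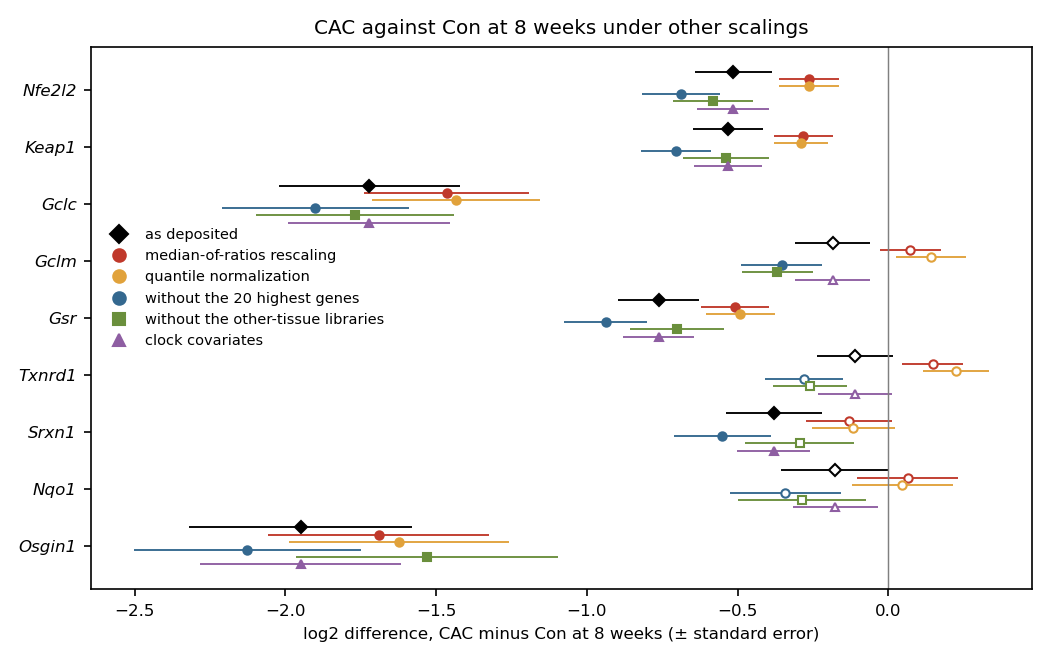
Log2 difference of CAC from Con at 8 weeks with its standard error (horizontal axis) for the 9 tested genes, under the deposited scale and 5 alternatives, with filled symbols where the gene was called. Osgin1 and Gclc lie at -1.43 or lower under every analysis drawn, while Gclm, Txnrd1 and Nqo1 lie on either side of 0 depending on the scaling.

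Marker sums of other cells were set beside these results. Summed over 5 markers, Kupffer cell transcripts ran from 89.7 to 384 TPM with a median of 177 in CAC at 8 weeks, and from 273 to 338 with a median of 329 in Con. Pancreatic acinar transcripts, 5 genes, ran from 4.03 to 14.2 TPM in CAC, where 1 of the 5 was at 0 throughout, and from 18.2 to 4090 TPM in Con. B cell transcripts, 4 genes, ran from 0.375 to 2.28 TPM in CAC and from 4.32 to 43.5 TPM in Con, without overlap. Endothelial transcripts, 4 genes, ran from 59.7 to 149 TPM in CAC and from 45.2 to 75.9 TPM in Con, with medians of 123 and 67.4 TPM. Hepatocyte sums were 97130 to 125100 TPM in CAC and 101200 to 118900 in Con, so these defining markers overlapped. Of 17 clock genes 2 were called higher and 1 lower, beside 5.87% and 35.3% of all genes. Among the 3 were Nr1d1 at -2.32 (adjusted p = 0.00705) and Per1 at 1.41 (adjusted p = 0.0237). The part of these transcripts in the results was not tested.

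CAC livers were also set against NCAC livers at 8 weeks, a comparison that shares the CAC libraries with the one above. Of the 9 tested genes 8 were lower in CAC, against a background of 43.1% of all genes called lower. Gsr measured 54.4, 43.2, 43.3, 36.4 and 45.6 TPM in NCAC, all above the highest CAC liver. Nfe2l2 measured 30.3, 28.6, 36.3, 26.2 and 38.7 TPM in NCAC and was separated from CAC in the same way. For 14% of all tested genes the CAC libraries lay entirely below the NCAC libraries. The differences were -0.95 ± 0.13 for Gsr (adjusted p = 2.43e-07) and -0.71 ± 0.13 for Nfe2l2 (adjusted p = 1.47e-05).

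Gclc measured 117.2, 157.3, 96.1, 96.8 and 109.1 TPM in the NCAC livers, and CAC was lower by a log2 difference of -1.47 ± 0.30 (adjusted p = 9.86e-05). Keap1 differed by -0.52 ± 0.12 (adjusted p = 0.000286) and Osgin1 by -1.05 ± 0.37 (adjusted p = 0.0167). Srxn1 (-0.49), Nqo1 (-0.45) and Txnrd1 (-0.39) were called with adjusted p of 0.00937, 0.0349 and 0.0102. Gclm was not, at -0.21 (adjusted p = 0.154). After median-of-ratios rescaling 3 of the 9 remained called, Gsr, Nfe2l2 and Gclc, and their differences were -0.65, -0.42 and -1.17, beside 12.9% of all genes then called lower. Leaving out the other-tissue libraries, NCAC replicates 1 and 5 here, left 5 called, beside 28.4% of all genes called lower. Srxn1 (-0.41), Nqo1 (-0.48) and Osgin1 (-0.97) were the 3 then lost. Without NCAC replicate 3 Txnrd1 was not called (adjusted p = 0.0562). Nqo1 lost its call on leaving out any of 6 of the 12 livers, and Osgin1 on leaving out CAC replicate 1 or 2 (adjusted p = 0.0672 and 0.0554).

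At 6 weeks 2 of the 9 genes, Gclc and Nfe2l2, were lower in CAC than in Con, beside a background of 10.3% of genes called lower. Gclc measured 25.8, 69.0, 103.5, 57.2 and 67.0 TPM in CAC and 138.1, 112.2, 109.1, 143.6 and 130.3 TPM in Con. Nfe2l2 measured 16.0, 24.0, 21.3, 24.5 and 21.0 TPM in CAC and 37.8, 25.7, 26.9, 29.4 and 31.8 TPM in Con. For both genes every CAC liver lay below every Con liver, as was so for 10% of all genes tested. The differences were -1.08 ± 0.32 for Gclc (adjusted p = 0.0181) and -0.49 ± 0.14 for Nfe2l2 (adjusted p = 0.0122).

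Both calls at 6 weeks were lost on leaving out 1 library. Without CAC replicate 1, which had the lowest value of both genes and carried pancreatic and muscle transcripts, Gclc stood at -0.79 (adjusted p = 0.123) and Nfe2l2 at -0.39 (adjusted p = 0.0797). No member was then called. Leaving out all pancreatic libraries, CAC replicate 1 among them, kept Nfe2l2 called (-0.40, adjusted p = 0.045) but not Gclc. Leaving out all other-tissue libraries did not keep Nfe2l2 called (-0.37, adjusted p = 0.109). Keap1, Gsr and Gclm differed by -0.12, -0.32 and -0.17 at 6 weeks, and Osgin1 by 0.79 ± 0.40 (adjusted p = 0.155). Against NCAC at 6 weeks Gclc alone was called, at -0.97 ± 0.32 (adjusted p = 0.0381), beside 5.54% of genes called lower. That call was also lost without CAC replicate 1 (-0.68, adjusted p = 0.233) and on leaving out any of 5 other livers. The NCAC values of Nfe2l2 ran from 24.5 to 27.0 TPM at 6 weeks. The lowest lay only just above the highest CAC liver, and both round to 24.53 TPM. Such separation held for 5.89% of genes, and the difference of -0.30 was not called (adjusted p = 0.164).

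None of the 9 genes was called between CAC and Con at 2 weeks or at 4 weeks, where 0.00822% and 1.91% of all genes were called either way by limma. At an unadjusted p under 0.05 there was 1 of the 9 at each time, Keap1, beside 10.7% and 12.9% of all genes, with differences of -0.26 ± 0.13 and -0.29 ± 0.13. Gclc stood at -0.12 ± 0.32 at 2 weeks and -0.53 ± 0.32 at 4 weeks, and Osgin1 at 0.37 ± 0.40 and 0.74 ± 0.40. The values for CAC against NCAC at 2 and 4 weeks likewise gave 0 calls, beside 0% and 1.27% of all genes. At an unadjusted p under 0.05 these held 2 and 0 of the 9, beside 14.6% and 10.2% of all genes. Nqo1 and Srxn1 were the 2 at 2 weeks, with differences of 0.46 and 0.36. Nqo1 ran from 12.6 to 18.3 TPM in CAC and from 9.67 to 12.5 TPM in NCAC at 2 weeks, without overlap, as did 2.95% of genes in that direction. Of the NCAC livers at 4 weeks, replicates 3, 4 and 5 carried pancreatic transcripts. Without the pancreatic libraries no member was called in CAC against NCAC at 4 weeks.

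NCAC livers were never called different from Con livers for any of the 9 genes. The share of all genes called either way was 0% at 2, 4 and 6 weeks and 0.181% at 8 weeks. At an unadjusted p under 0.05 there were 2, 0, 0 and 2 of the 9 genes at the 4 time points, beside 10.7%, 7.68%, 9% and 10.9% of all genes. Those at 2 weeks were Srxn1 and Nqo1, both at -0.41, and those at 8 weeks were Txnrd1 at 0.28 and Osgin1 at -0.90. The 4 week comparison rests in part on NCAC replicates 3, 4 and 5, which carried pancreatic transcripts. At 8 weeks Gclc in NCAC averaged 115 ± 25.1 TPM (SD, n = 5) against 138 ± 30.5 TPM in Con (SD, n = 5), a difference of -0.25 ± 0.32 (adjusted p = 0.784). These standard errors leave room for differences as large as several of those called in CAC, so a missed threshold does not show that NCAC and Con act alike.

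**Figure D4:**
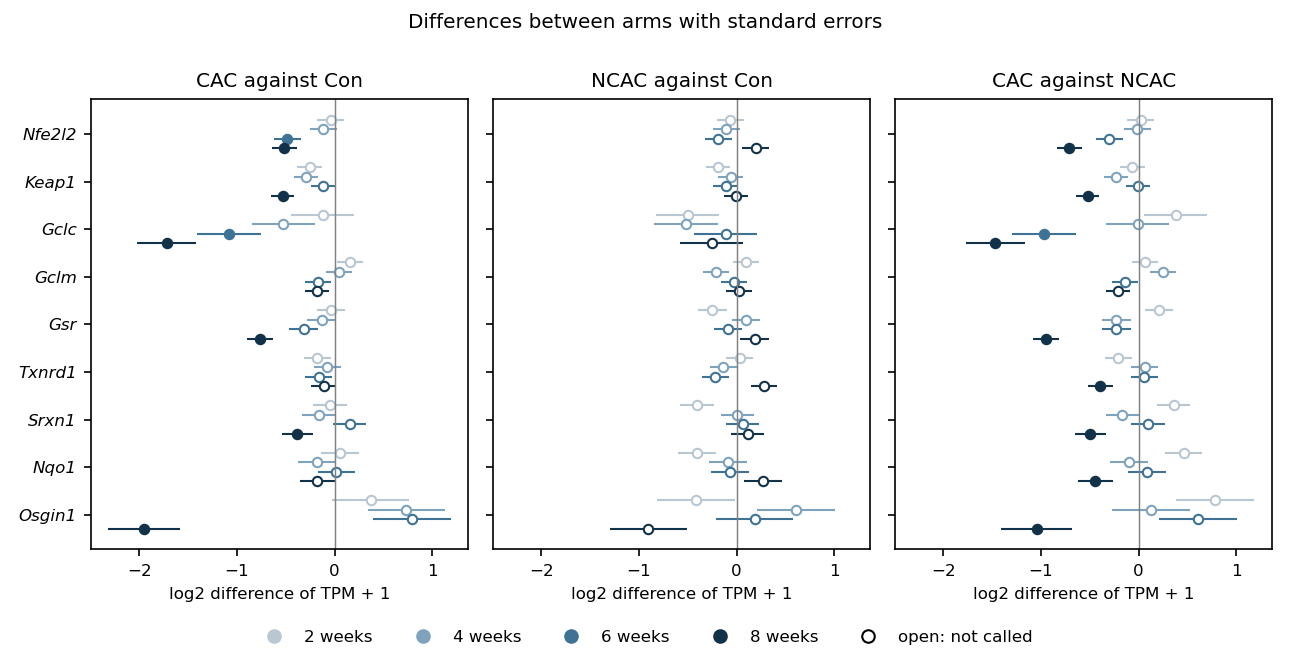
Log2 differences of TPM + 1 between arms with standard errors (horizontal axes) for the 9 tested genes at 2, 4, 6 and 8 weeks, with filled points where the gene was called. In CAC against Con the Gclc points run from -0.12 to -1.72, the Osgin1 points lie at 0.37, 0.74 and 0.79 before the -1.95 at 8 weeks, and no point is filled for NCAC against Con.

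Whether the CAC to Con difference itself changed with time was tested directly. From 2 to 8 weeks it became more negative for 3 of the 9 genes, Osgin1, Gsr and Gclc, beside 12.2% of all genes called in that direction. The change was -2.32 ± 0.54 for Osgin1 (adjusted p = 0.00258), -0.73 ± 0.20 for Gsr (adjusted p = 0.00934) and -1.60 ± 0.44 for Gclc (adjusted p = 0.00974). Part of the libraries behind it carried pancreatic transcripts, CAC replicates 1 and 4 at 2 weeks and Con replicates 2 and 4 at 8 weeks. Without these libraries only Gclc was called, and Osgin1 stood at -1.77 (adjusted p = 0.0765) and Gsr at -0.58 (adjusted p = 0.11). Nfe2l2 changed by -0.47 ± 0.19 and was not called (adjusted p = 0.0763).

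The same change in NCAC against Con gave 0 of the 9, beside 0.00822% of all genes. At an unadjusted p under 0.05 it held 3 of the 9, beside 9.14% of all genes. Con livers at 8 weeks against Con livers at 2 weeks also gave 0 of the 9, beside 0.296% of genes. At an unadjusted p under 0.05 it held 1 of the 9, Osgin1, beside 10.1% of all genes. Osgin1 stood at 0.83 ± 0.40 (adjusted p = 0.472), and at 0.41 without the pancreatic libraries (adjusted p = 0.846). A step from 6 to 8 weeks was added after the values were seen, because Osgin1 stood above Con at 6 weeks and below it at 8. Osgin1 changed by -2.74 ± 0.54 (adjusted p = 0.065) and had the smallest p of all 12160 genes. Because the step was chosen for Osgin1, this rank and its p-values are descriptions and no independent support. Without the pancreatic libraries Osgin1 stood at -2.40 (adjusted p = 0.304). In that comparison 0% of genes were called. At an unadjusted p under 0.05 it held 4 of the 9, beside 18% of all genes. Osgin1 in CAC livers at 6 weeks measured 127.4, 180.4, 200.1, 247.9 and 254.0 TPM, and 6 of the 7 CAC livers at 8 weeks lay below the lowest of these, replicate 4 only just, at 127.2 TPM.

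Within groups the genes varied together unequally. Over the deviations from group means in all 62 libraries, Pearson's r was highest between Gsr and Srxn1 (0.771), Gclc and Gsr (0.742) and Nfe2l2 and Gclc (0.698). It was lowest between Txnrd1 and Osgin1 (0.00918). These libraries share their scaling and their admixture, so the values are descriptions. Among all other tested genes those most like Gclc by this measure were Fam149a (0.895) and Adh4 (0.874), an alcohol dehydrogenase of hepatocytes. Those most like Nfe2l2 were Rassf6 (0.799) and M6pr (0.798), and those most like Keap1 were Eif3l (0.849) and Aldh2 (0.846). Gsr was closest to Prkaca (0.823) and Psmd11 (0.815), Gclm to Atg4c (0.828) and Pvrl3 (0.808), and Txnrd1 to Ptpn21 (0.848) and Adal (0.847). Nqo1 was closest to Stambp (0.772) and Txnrd3 (0.756). No gene came close to Osgin1 beyond r = 0.555 for Pold2 and 0.553 for Nme6.

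The rest of the pathway was described with lists of genes at 8 weeks, CAC against Con. Among 15 partners and regulators of NRF2, 6 were called lower and 0 higher, beside 35.3% and 5.87% of all genes. The list median was -0.20 beside -0.21 over all genes, so neither value stood far from the background. Without the other-tissue libraries 7 were lower, beside 34.8% of all genes. Sqstm1, the autophagy receptor p62 that competes for KEAP1, fell by 0.81 on the log2 scale (adjusted p = 2.31e-05), from 204 ± 36.6 to 117 ± 31.4 TPM. Rbx1 (-0.31) and Btrc (-0.43), which encode ubiquitin ligase subunits, and Dpp3 (-0.46), which encodes a KEAP1-binding peptidase, were also called. Mafg, a small MAF partner, stood at 0.06 (adjusted p = 0.754) and Bach1, a repressor at the same elements, at 0.21 (adjusted p = 0.396). After median-of-ratios rescaling, which called 13.2% of all genes lower and 13.3% higher, 1 of the 15 was lower, Sqstm1, and 2 were higher, Bach1 and Mafk.

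NADPH feeds both reductase systems. Of 10 genes of NADPH supply 8 were called lower and 1 higher, beside 35.3% and 5.87% of all genes. After rescaling 6 were lower and 1 higher, beside 13.2% and 13.3%. Me1, cytosolic malic enzyme and a known NRF2 target, averaged 22.7 ± 21.6 TPM in CAC against 72.6 ± 15.5 TPM in Con, a difference of -1.92 (adjusted p = 3.63e-07). Idh2, Tkt and Idh1 stood at -1.02, -0.80 and -0.77, all called. The 1 called higher was Aldh1l1, a folate enzyme, at 0.40 (adjusted p = 0.0153), named after its value was seen.

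Among 25 other NRF2 targets 17 were called lower and 0 higher, with a median of -0.62, beside 35.3% of all genes called lower. After rescaling 12 were lower, beside 13.2%. Ephx1, the microsomal epoxide hydrolase, averaged 62.1 ± 56.0 TPM in CAC against 235 ± 35.9 TPM in Con, a difference of -2.26 (adjusted p = 3.88e-08). Txn1, thioredoxin, stood at -0.80, Esd at -0.62 and Prdx1, a peroxiredoxin, at -0.55, all called. Hmox1, haem oxygenase, averaged 18.8 ± 10.5 TPM in CAC and 14.7 ± 1.52 TPM in Con and was not called (0.15, adjusted p = 0.671).

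Glutathione transferases had the lowest median of the lists, -0.96 over 14 genes, of which 12 were called lower and 0 higher, beside 35.3% of all genes called lower. After rescaling 8 were lower, beside 13.2%. Gsta2 averaged 7.29 ± 7.20 TPM in CAC and 46.1 ± 7.91 TPM in Con, a difference of -2.79 (adjusted p = 1.82e-09), and Gstt1 stood at -1.28. Gsta1 and Gsta4 were called at -2.52 and -1.05. Gsta1 and Gsta2 are near-identical copies, and how reads were shared between them is not given in the sources used here. Gsta2 was already called at 4 weeks (-1.29, adjusted p = 0.0326) and at 6 weeks (-2.17, adjusted p = 7.91e-06).

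Of 15 genes of glutathione synthesis, use and breakdown 6 were called lower and 1 higher, beside 35.3% and 5.87% of all genes. The list median was -0.25 beside -0.21, near the background. Without the other-tissue libraries 6 were lower and 2 higher, beside 34.8% of all genes then called lower. Gpx1, the main cytosolic glutathione peroxidase, fell by 1.09 on the log2 scale, Hagh by 0.83, Gss, glutathione synthetase, by 0.47 and Glrx2 by 0.29. The 1 called higher was Chac1, which degrades glutathione, at 1.55 ± 0.40 (adjusted p = 0.00164), with 8.97 ± 5.25 TPM in CAC and 2.11 ± 1.05 TPM in Con. Rescaling left 2 lower, Gpx1 and Hagh, and 2 higher, Chac1 and Cth, beside 13.2% and 13.3% of all genes, so near the background.

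Of 16 superoxide, peroxide and thioredoxin enzymes 13 were called lower and 0 higher, beside 35.3% of all genes called lower. After rescaling 4 were lower, beside 13.2%, among them Cat, Txnrd2 and Sod2. Catalase, encoded by Cat, averaged 893 ± 397 TPM in CAC and 1900 ± 275 TPM in Con (-1.17, called). Txnrd2, the mitochondrial thioredoxin reductase, stood at -0.95 (adjusted p = 5.07e-07), where its cytosolic relative Txnrd1 was not called. Sod2 and Msra fell by 0.62 and 0.47.

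Slc7a11 and Chac1 are also targets of ATF4, the factor of the amino acid response. Of 12 ATF4 targets 2 were called higher and 3 lower, with and without the other-tissue libraries, beside 5.87% and 35.3% of all genes on the deposited scale. Chac1 was 1 of those higher, and Fgf21 (-1.51), Vldlr (-0.74) and Slc3a2 (-0.48) were the 3 lower. Atf4 itself stood at -0.07 (adjusted p = 0.693). In NCAC against Con at 8 weeks 0 genes of any of these lists were called.

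At 6 weeks fewer genes of these lists were called in CAC against Con. Lower were 7 of the 25 other NRF2 targets, 5 of the 14 glutathione transferases, 5 of the 10 NADPH supply genes and 4 of the 16 superoxide, peroxide and thioredoxin enzymes, beside 10.3% of all genes. Me1 and Ephx1 were among them, at -1.10 (adjusted p = 0.00909) and -1.28 (adjusted p = 0.00388). Without the other-tissue libraries these counts were 1, 2, 1 and 1, with 3.53% of all genes then called lower. At 8 weeks the same omission left 18, 9, 6 and 10 in place of 17, 12, 8 and 13, with 34.8% of all genes called lower.

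**Figure D5:**
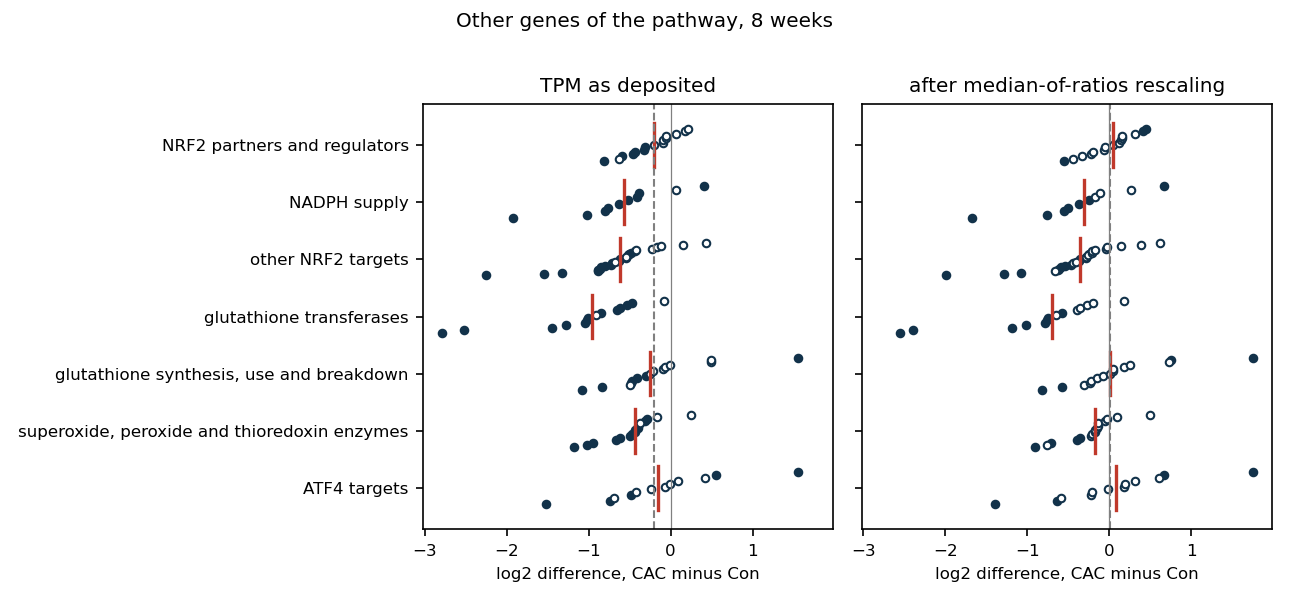
Log2 difference of CAC from Con at 8 weeks (horizontal axes) for the tested genes of 7 lists, on the deposited scale and after median-of-ratios rescaling, with filled points where the gene was called, red bars at list medians and a dashed line at the median of all tested genes. Glutathione transferases have the lowest list median, -0.96 on the deposited scale, and the partners and regulators have a median of -0.20, near the dashed line at -0.21.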

How the data were processed

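Liver RNA was sequenced, per the labels' protocols, from stranded TruSeq mRNA libraries of Trizol extracts on a NovaSeq instrument. TPM values were deposited by the authors in 1 table of 47643 symbols by 62 libraries, and each library sums to 1000000. The genome build was mm10 per the submitters' processing notes, and aligner, quantifier and read numbers were not given in the sources used here. Without read numbers a count model could not be used. Every column matched a label by its name (0 unmapped columns).

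The 12160 genes reaching 1 TPM in 5 or more libraries were fitted as log2(TPM + 1), a scale that understates changes of low genes, with limma 3.58.1 in R 4.3.3. The fit had 1 mean for each of 12 groups over all libraries and trended moderation. Benjamini-Hochberg adjustment was within each of 16 comparisons, over all genes tested. They were, at each week, the 3 pairs of arms, then the 8 minus 2 week change of CAC and of NCAC against Con, Con at 8 with Con at 2 weeks, and the 8 minus 6 week change of CAC against Con, added after the values were seen. P-values set each difference against the spread between libraries within groups. That spread was 1 estimate per gene, pooled over all 12 groups.

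All 10 members are named. From each list the up to 4 tested genes with the smallest p at 8 weeks in CAC against Con are named, with a few fixed genes such as Hmox1 and Mafg. Others, among them Aldh1l1, Mafk and Cth, were named after their values were seen. The members and lists were chosen with earlier results of these data known. Likeness is Pearson's r of deviations from group means, and its result for Srxn1 is not reported here. The pipeline was tested on simulated data. Alternatives were dropping the filter, filtering at a mean TPM of 5, a pseudocount of 0.1, median-of-ratios, quantile and top-20 rescaling, robust moderation, a fit within the weeks compared, a replicate block, clock covariates, leaving out pancreatic or other-tissue libraries, and leaving out each library. Motifs were searched and figures drawn with Python 3.11.15, NumPy 2.4.6, pandas 2.3.3 and matplotlib 3.10.9.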

Additional observations from a re-analysis of the deposited data

Results flagged for a closer look

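In 7 of 108 checks of a gene in a group, 1 library lay far from the others, where chance gives about 1 in 20. For Gclm these were Con replicate 1 at 2 weeks, high at 64.7 TPM, and NCAC replicate 4 at 4 weeks, low at 30.1 TPM. Txnrd1 was low in CAC replicate 1 at 8 weeks (41.1 TPM). Srxn1 was high in CAC replicate 3 at 8 weeks (30.4 TPM) and low in NCAC replicate 1 at 6 weeks (17.3 TPM), and Nqo1 was low in that same NCAC library (7.45 TPM). Osgin1 was low in CAC replicate 2 at 4 weeks (58.9 TPM).

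The CAC to Con difference was itself different at 8 weeks from 2 weeks, by limma's test of the change, for Gclc (-1.60), Gsr (-0.73) and Osgin1 (-2.32). Of all genes 12.2% were called in that direction. Without the pancreatic libraries only Gclc stayed called among the members.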

How the results depend on the processing

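Of the 12 alternative analyses, all 12 kept Nfe2l2, Keap1, Gclc, Gsr and Osgin1 called lower in the 8 week CAC livers against Con, and so did leaving out each of the 12 livers, and 0 called results reversed. As deposited, 10.3% of all genes were called lower in CAC against Con at 6 weeks and 12.2% in the 8 minus 2 week change. Against NCAC these shares were 5.54% at 6 weeks and 43.1% at 8 weeks, and they too move with the setting. Whether the counts of members moved further than these shares was not tested. Counts of members called moved by more than 1.5 times as follows. Without the pancreatic libraries the count was 1 for CAC against Con at 6 weeks (2 as deposited), 0 for CAC against NCAC at 6 weeks (1) and 1 for the 8 minus 2 week change in CAC (3). Without the other-tissue libraries these were 0, 0 and 1, and CAC against NCAC at 8 weeks had 5 in place of 8. Median-of-ratios gave 3 and quantile normalization 4 there. Rescaling without the 20 highest genes gave 3 for CAC against NCAC at 6 weeks and 5 for the 8 minus 2 week change, and no filter gave 0 for the former. A fit within the weeks compared gave 1, Nqo1, for CAC against NCAC at 2 weeks. For the added 8 minus 6 week change the filter at a mean of 5 TPM and the clock covariates each gave 1, Osgin1 (0.0393 and 0.00246 as adjusted p). That step was chosen because of Osgin1, so these p-values are no independent support. The clock covariates were deviations from group means, so by construction they changed errors and not differences.

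Leaving out 1 library at a time gave 5 to 6 members called in CAC against Con at 8 weeks, 0 to 2 at 6 weeks, 0 to 1 in CAC against NCAC at 6 weeks and 6 to 8 at 8 weeks. It gave 3 to 4 for the 8 minus 2 week and 0 to 2 for the 8 minus 6 week change in CAC. Shares of all genes were not formed for each library left out. With all libraries, 35.3% and 10.3% of all genes were called lower against Con at 8 and 6 weeks. Against NCAC these were 43.1% and 5.54%, and for the 2 changes 12.2% called lower and 0% called either way. Same-numbered libraries did not deviate together (mean r -0.0239 over 60 pairs, 0.00693 over 260 pairs of other numbers). With a replicate block 5 members were called in CAC against Con at 8 weeks, where Srxn1 stood at -0.34 (adjusted p = 0.123). Depth is unknown, so no counting limit can be given for Slc7a11, listed at 0 in 32 libraries.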
